A study of Mus musculus with 12 samples.

Results

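The comparison described here is that of dormant tumour cells recovered from the lungs of mice whose myeloid cells lacked the TGF-β type II receptor gene Tgfbr2 (KO) with dormant tumour cells from the lungs of WT mice. It rests on 6 of the 12 libraries of the series, 3 per host, chosen by the sample titles, and on the 10212 of 54146 annotated genes that reached 1 TPM in at least 3 of these 6 libraries. TPM is the share of a gene among all transcripts of a library, corrected for transcript length and scaled to the same total in each library.

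The tumour cells were D2A1, a mouse mammary carcinoma line that metastasises to the lung, carrying a doxycycline-inducible H2B-GFP and stained before tail vein injection with CellVue Claret (CVC), a membrane dye that is diluted at each division. Cells of the dormant groups were sorted from dissociated lungs as GFP+ and CVC positive, and those of the growing groups as GFP+ and CVC negative. Both hosts were female mice. The KO hosts carried floxed Tgfbr2 alleles and Cre under the Lysozyme 2 promoter, so that the deletion lay in macrophages, monocytes and neutrophils of the host and not in the tumour cells. The study's legends call the controls flox control mice, while the labels call them WT. The study's legends describe the replicates of a group as mice, which the labels do not state, and the p-values measure the spread between these libraries. Every dormant and growing KO library belongs to batch 2 in its library name and every WT library to batch 1, so host and batch cannot be told apart in any comparison between hosts made here. The deposited table also has columns whose names read as WT libraries of batch 2, dormant and growing, which match no sample label of the series and were not analysed here.

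TGF-β restrains immune activation, and in a tumour it acts on the cancer cells, on the stroma and on infiltrating myeloid cells. A disseminated tumour cell that stays alive without dividing is called dormant, and cell cycle inhibitors, signals from the matrix through integrins, and secreted factors such as bone morphogenetic proteins and GAS6 are known to hold cells in that state. The question of this comparison is which transcripts of dormant cells differ with the host. SLURP1, a small secreted protein of the Ly6/uPAR family, and CD200, a membrane glycoprotein that quiets cells bearing its receptor, are the molecules on which the study centred.

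The dormant libraries of both hosts correlated less among themselves than the growing ones did, and those of the KO group stood apart from their label. Of the genes tested, 1665 to 2807 were listed at 0 in a dormant WT library and 190 to 283 in a dormant KO library. Of 3542 genes that reached 50 TPM in a dormant WT library, 539 (15.2%) were listed at 0 in another library of that group, against 20 of 2362 (0.847%) among dormant KO libraries and 3 of 2501 (0.12%) among growing WT libraries. Among growing KO libraries the number was 13 of 2696 (0.482%). Pearson's r of log2(TPM + 1) across the genes tested was 0.643 to 0.697 between dormant WT libraries and 0.87 to 0.885 between dormant KO libraries. It was 0.961 to 0.964 between growing WT and 0.931 to 0.94 between growing KO libraries. Dormant WT libraries correlated with growing WT ones at 0.693 to 0.794, on average more than with each other. Between dormant KO and growing KO libraries r was 0.721 to 0.733. Genes that nearly every cell uses were among the zeros: Trp53, which encodes p53, was listed at 0 in all 3 dormant WT libraries, and Fbl, a component of the nucleolus, in at least 1. A value of 0 in these libraries is therefore given as listed at 0.

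Markers of the labelled cells were checked first. Spp1, osteopontin, which is abundant in D2A1 cells, reached 1236, 1509 and 1427 TPM with KO hosts and 39951, 32482 and 33468 TPM with WT hosts among dormant libraries, with means of 31100 TPM in growing KO and 33200 TPM in growing WT cells. The summed level of the 15 mesenchymal and D2A1-abundant genes was 39400 to 51500 TPM in dormant WT, 39600 to 43200 TPM in growing KO, 41200 to 43600 TPM in growing WT and 3500 to 3950 TPM in dormant KO libraries. The 3 dormant KO libraries lay below the other 9 on this list, of whose 12 tested genes 1 was called higher, 4 lower and 7 not called. Spp1 alone made up most of the sum in the dormant WT and growing libraries. The dormant KO libraries lay below the dormant WT ones for 8 of the 12 genes and above them for 1. The epithelial markers Epcam, Krt5 and Krt14 were at or near 0 in both dormant groups, at most 5.45 TPM. Other keratins of the mammary epithelium list differed between the hosts, with Krt19 at 267.3, 418.3 and 252 TPM in KO and at most 0.59 TPM in WT libraries and Krt7 at 29.6 to 61.46 TPM against 0, whereas Krt18 was present in all 6 libraries and Vim, a mesenchymal intermediate filament, at 372 to 734 TPM.

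Summed markers of lung and blood cells moved the other way. The 12 alveolar type 2 genes summed to 40300 to 42600 TPM in dormant KO and 77.5 to 141 TPM in dormant WT libraries, 10 of them at 1 TPM or more in all 3 KO libraries, and to 465 to 473 TPM in growing KO libraries. For the 14 mesothelial genes the sums were 13600 to 15200 TPM in dormant KO and 0.72 to 79 TPM in dormant WT, where 8 of the 14, Wt1 and Upk3b among them, were listed at 0 throughout. The erythroid and platelet list summed to 51400 to 57000 TPM against 9160 to 13000 TPM, the neutrophil list to 4240 to 4560 TPM against 342 to 921 TPM, and the macrophage and monocyte list to 3790 to 3990 TPM against 1880 to 2230 TPM. Lyz2, described below, made up most of the macrophage and monocyte sum in the KO libraries. Of the 12 genes tested in that list 3 were called higher and 9 were not called. In 2 of them the KO libraries lay below the WT libraries. Each of 13 of the 14 cell type lists had no overlap between the hosts, the mammary epithelium list being the exception (565 to 891 against 322 to 572 TPM, exact permutation p = 0.2), and each exact permutation test of those 13 gave p = 0.1, the smallest that 3 against 3 allows (p = 0.106 after Benjamini-Hochberg adjustment over 18 summed shares). Because all 3 KO libraries shared this profile, no KO value without it can be given, and the part of other cells in the differences reported here was not tested, although the sort gate required GFP and CVC. In bulk samples, fewer cells of a type and less RNA per cell cannot be told apart.

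**Figure D1:**
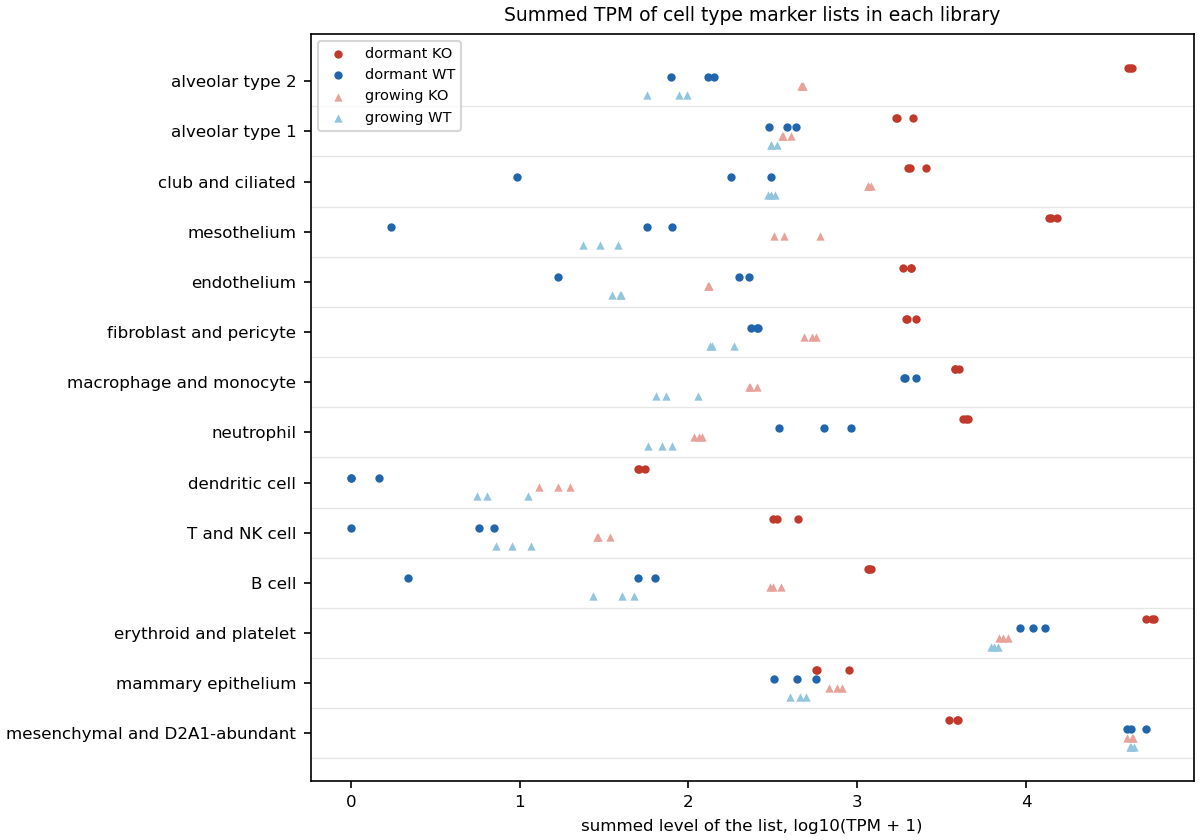
Summed TPM of 14 cell type marker lists on a log10(TPM + 1) axis, 1 point per library, for dormant (circles) and growing (triangles) cells of KO (red) and WT (blue) hosts. The 3 dormant KO libraries lie to the right of the dormant WT libraries on 12 lists and to the left on the mesenchymal and D2A1-abundant list, at 3500 to 3950 TPM, and the mammary epithelium list overlaps.

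Between the hosts, 1884 genes (18.4% of those tested) were called in dormant cells, 1246 (12.2%) higher in KO hosts and 638 (6.25%) lower. Each call needed an adjusted p of at most 0.05 in limma with Benjamini-Hochberg adjustment and a difference of at least 1 in mean log2(TPM + 1), written here as the log2 difference, KO minus WT. The median size of a called difference was 3.15 for the higher and 2.55 for the lower genes, the largest being 11.3 and 9.21. Rarres2, Sftpa1 and Slpi had the largest higher differences among genes with an established symbol. Genes in satellite repeat blocks had the largest lower differences, followed among genes with an established symbol by Mmp10, Crabp2 and Akr1c18. Protein-coding genes made up 1131 of the higher and 558 of the lower calls, while 25 of the 26 immunoglobulin and T cell receptor segments tested were called higher. At an unadjusted p under 0.05 there were 3136 genes, and 3602 genes (35.3%) had libraries that did not overlap between hosts. The share of calls that were higher, 66.1%, became 79.3% with median-ratio scaling and 53.8% with quantile normalization, and the median log2 difference of all genes tested moved from 0.206 to 0.543 and -0.158.

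**Figure D2:**
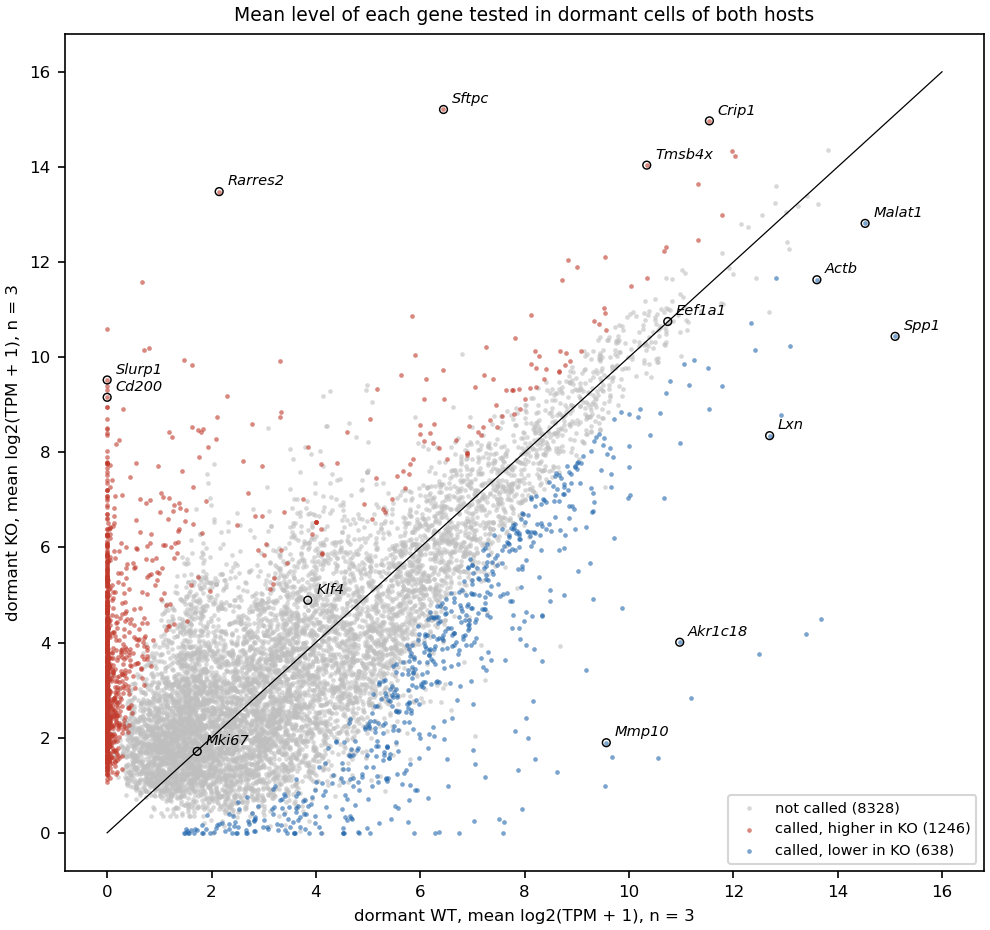
Mean log2(TPM + 1) of each of the 10212 genes tested in dormant WT (horizontal) and dormant KO (vertical) libraries, 3 per group, with the line of equal levels. Genes called higher in KO hosts (red, 1246) crowd the left edge, where the WT libraries are at or near 0, while Spp1, Lxn, Akr1c18 and Mmp10 lie far below the line.

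Most higher calls were of genes that only the KO libraries held. Of the 1246, 985 came from the 1049 genes at 1 TPM or more in all 3 KO libraries and in no WT library. Such genes passed the filter only through the group in which they were high, so they had to differ, and their number is not read as a result. The same holds for 50 of the 117 cell type marker genes tested, of which 78 were called higher and none lower, and for 68 of the 525 genes tested from the pathway lists, all 68 called higher among the 101 higher calls of those lists. Among the 68 were all 4 higher immune checkpoint calls, 4 of 6 chemokine, 4 of 11 complement and 4 of 9 detoxification calls. So were 3 of 5 metalloproteinase and 3 of 8 actin cytoskeleton calls. The 45 gene lists used here named 791 genes, of which 639 were tested. Among the 3807 genes at 1 TPM or more in all 6 libraries, the balance was the reverse, with 115 called higher and 436 called lower and a median log2 difference of -0.532. With a filter that used only the growing libraries, chosen after the data were seen, 897 of 10714 genes (8.37%) were called. All 897 were among the 1884.

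**Figure D3:**
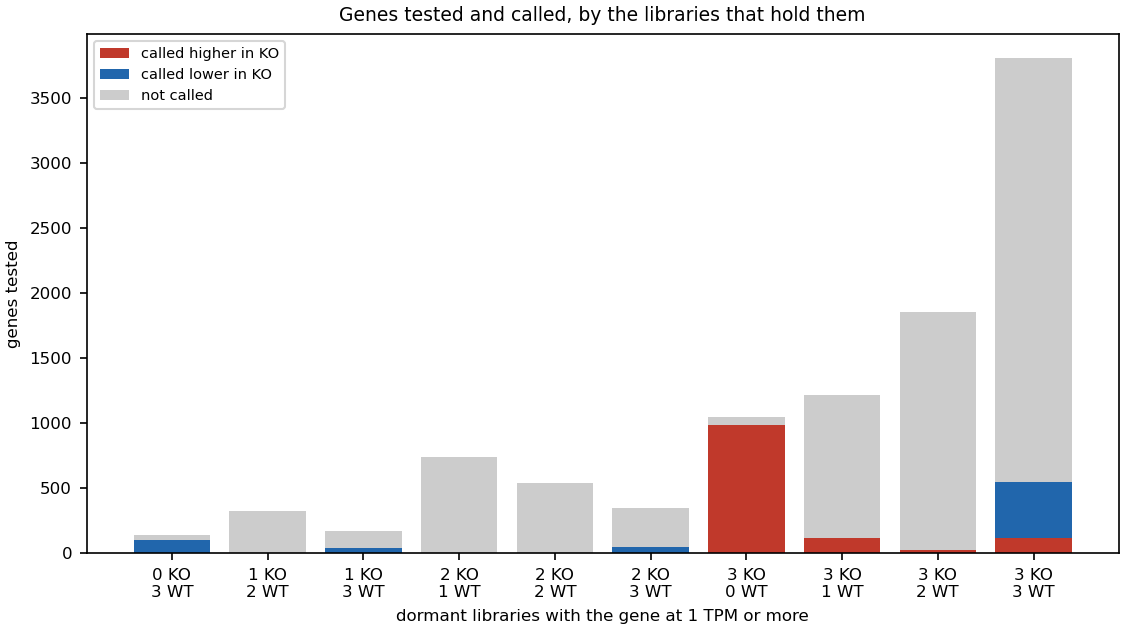
Number of genes tested, by how many of the 3 KO and 3 WT dormant libraries held the gene at 1 TPM or more, split into called higher (red), called lower (blue) and not called (grey). The 1049 genes held by 3 KO and 0 WT libraries are nearly all called higher (985), while the 3807 held by all 6 give 115 higher and 436 lower calls.

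Slurp1 (chr15:74724318-74728034, minus strand) was listed at 0 in all 3 dormant WT libraries and reached 665.6, 742.1 and 799.2 TPM in the dormant KO libraries. It passed the filter only through the KO libraries, so its groups had to differ and the test gives no separate support. Its log2 difference was 9.52 (SE 0.431, adjusted p = 0.000176 in limma). It averaged 5.94 TPM in growing KO cells and 0.03 TPM in growing WT cells. Against a group listed at 0 a log2 difference depends on the pseudocount, and that of Slurp1 was 12.8 with a pseudocount of 0.1 and 7.21 with 5. The exact permutation test of its TPM values gave p = 0.1. Slurp1 was also 1 of the 14 genes of the mesothelium list.

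Slurp1 belongs to the Ly6 and uPAR family of small proteins that are secreted or tethered to the membrane. Of the 9 members tested, 6 were called higher and none lower, 3 of them held by KO libraries alone. Lypd2, a neighbour of unsettled function, was listed at 0 in the WT libraries and stood at 132.95, 86.63 and 77.59 TPM in the KO libraries. Ly6a, the stem cell antigen Sca-1, which endothelium and lymphocytes also express, was present in both hosts, at 877, 812 and 844 TPM in KO and 79.2, 86.2 and 91.5 TPM in WT libraries (log2 difference 3.29, SE 0.193, adjusted p = 0.000328 in limma). Ly6e followed it with a difference of 2.95. Gpihbp1, which anchors lipoprotein lipase to capillary endothelium, had 1 WT library at 116 TPM and the other two listed at 0, and its adjusted p of 0.0406 passed in 1 of the 6 fits that left a library out, where it went as high as 0.147. Plaur, the urokinase receptor uPAR, differed by -0.03 (95% interval -1.29 to 1.23), and its ligand Plau by -0.31 with 1 WT library at 33.75 TPM and the others under 1 TPM.

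Cd200 (chr16:45382135-45409053, minus strand) showed the same kind of pattern, at 593.1, 639.9 and 486.8 TPM in the dormant KO libraries and listed at 0 in the 3 dormant WT libraries. Its log2 difference was 9.16 (SE 0.457, adjusted p = 0.000217 in limma), and the exact permutation test gave p = 0.1. Cd200 too passed the filter only through the KO libraries, so its groups had to differ. Growing cells held a mean of 13.1 TPM in KO and none in WT hosts. CD200 is also made by endothelium and lymphocytes. Among the 12 immune checkpoint genes tested, 4 were called higher and none lower, the others being Cd86, Vtcn1 and Entpd1, at means of 12.9, 3.95 and 5.08 TPM in KO and all listed at 0 in WT libraries. Vtcn1 and Entpd1 lost their calls without the third WT library, and Vtcn1 also without the second (adjusted p up to 0.059). Cd274, which encodes PD-L1, differed by -0.82 and Cd47 by -0.53, neither past the test.

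The promoters of genes with a large host difference are shown because the study asked about KLF4, a zinc finger factor of the Krüppel-like family, which binds CACCC-type sites such as CCCCACCC. RefSeq promoters of 300 bases around the start (GRCm38.p6) were searched for CCCCACCC on either strand. Of the 12 named genes with the largest higher differences, 6 had an entry, and 2 of these, Sftpa1 and Plac8, held the octamer. Slurp1 had no entry. Cd200 is given at chr16:45409004-45409303 on the minus strand, Sftpa1 at chr14:41131538-41131837 on the plus strand and Plac8, which has a second start, at chr5:100572156-100572455 on the minus strand. Capitals mark the octamer or its reverse complement GGGTGGGG, which begin at base 192 of Sftpa1 and base 204 of Plac8. The sequences, 5′ to 3′, were as follows.
Cd200: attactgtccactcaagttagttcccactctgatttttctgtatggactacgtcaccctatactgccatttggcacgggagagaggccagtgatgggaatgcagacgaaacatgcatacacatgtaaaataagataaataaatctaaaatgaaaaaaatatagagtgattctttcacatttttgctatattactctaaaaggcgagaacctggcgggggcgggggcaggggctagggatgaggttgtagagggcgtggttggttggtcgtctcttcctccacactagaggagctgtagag
Sftpa1: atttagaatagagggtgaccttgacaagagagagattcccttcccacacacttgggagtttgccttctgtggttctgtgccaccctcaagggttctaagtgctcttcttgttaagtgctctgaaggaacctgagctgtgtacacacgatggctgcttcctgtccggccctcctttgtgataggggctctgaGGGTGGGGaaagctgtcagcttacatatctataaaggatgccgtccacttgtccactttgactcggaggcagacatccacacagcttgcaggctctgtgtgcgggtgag
Plac8: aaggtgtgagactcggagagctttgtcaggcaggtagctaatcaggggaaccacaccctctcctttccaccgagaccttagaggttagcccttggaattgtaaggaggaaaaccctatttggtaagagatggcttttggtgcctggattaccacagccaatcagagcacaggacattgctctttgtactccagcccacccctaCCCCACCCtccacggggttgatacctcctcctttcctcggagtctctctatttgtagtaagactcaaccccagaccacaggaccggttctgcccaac
These letters were not in this Cd200 window. The study reported the motif in the mouse and human CD200 promoters by a Homer search, whose span can differ from this window. By ChIP in D2A1 cells made to overexpress KLF4, it also reported KLF4 at the Cd200 and Slurp1 promoters. The search of a single window does not test that evidence. By gene symbol, 11.3% of the 27025 genes with a promoter held the octamer, as did 14.5% of the 7053 tested genes with an entry, 19.1% of the 813 called higher and 15% of the 414 called lower. A match is a run of letters and not a measured site.

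The Krüppel-like factors themselves gave no call, which does not show that their levels were alike. None of the 10 tested of 17 passed in limma at the adjusted threshold, 1 was called lower without the second WT library, and with all 12 libraries in the fit 1 was called higher and 2 lower. Klf4 stood at 21.91, 30.22 and 35.38 TPM in KO and 21.64, 21.63 and 4.8 TPM in WT libraries. The lowest KO value lay just above the highest WT value, and the log2 difference was 1.04 (95% interval -0.65 to 2.73, adjusted p = 0.396 in limma, exact permutation p = 0.1). Without the third WT library the difference was 0.389. Klf2, which quiets endothelium and T cells, was at 80.35, 64.03 and 62.07 TPM against 18.73, 32.83 and 41.8 TPM, with a 95% interval of the log2 difference from 0.12 to 2.24 (adjusted p = 0.123 in limma). Its adjusted p was 0.0464 with all 12 libraries in the fit. The median of the 10 factors was -1.05.

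The largest higher difference was that of Rarres2, which encodes the chemoattractant chemerin, with 11586, 11964 and 10779 TPM in KO and 0.13, 75.85 and 0 TPM in WT libraries (log2 difference 11.33, SE 1.6, adjusted p = 0.00764 in limma). The second WT library alone held it above 1 TPM. Nkain4, a partner of the sodium pump, reached 688.5, 583.1 and 764.4 TPM in KO libraries and was listed at 0 in the WT libraries. Rarres2, Nkain4 and Slurp1 belong to the mesothelium list, of which all 14 members were called higher, 11 of them held only by KO libraries. Upk1b, a uroplakin, Gpm6a, a membrane glycoprotein, and Aldh1a2, which makes retinoic acid, had KO means of 230, 252 and 153 TPM and at most 0.11 TPM in a WT library. Msln, mesothelin, lost its call in 5 of the 6 fits without a library, its adjusted p reaching 0.137.

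Surfactant genes made up the next block. Sftpc, surfactant protein C, the defining product of alveolar type 2 cells, was the most abundant higher call and was present in both hosts, at 39284, 36571 and 37725 TPM in KO and 41.2, 141.1 and 109.5 TPM in WT libraries. Its mean TPM was 389-fold higher in KO (log2 difference 8.76, SE 0.424, adjusted p = 0.000201 in limma). Sftpa1 rose from at most 2.64 TPM in WT to 2876, 3170 and 3091 TPM in KO libraries. In all, 10 of the 11 alveolar type 2 genes tested were called higher and none lower, the exception being the lipid transporter Abca3 at -0.76. Of 10 alveolar type 1 genes, 7 were called higher, led by Ager, the receptor for advanced glycation end products, at 391.4, 632.6 and 447.3 TPM against at most 0.86 TPM. Aqp5 did not differ past the test, at -0.1. Of 9 club and ciliated genes, 6 were called higher. Scgb1a1, the club cell secretory protein, was at 2176, 1752 and 1694 TPM against 103.6, 7.57 and 207.9 TPM, and lost its call without each KO library in turn (adjusted p up to 0.0925).

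**Figure D4:**
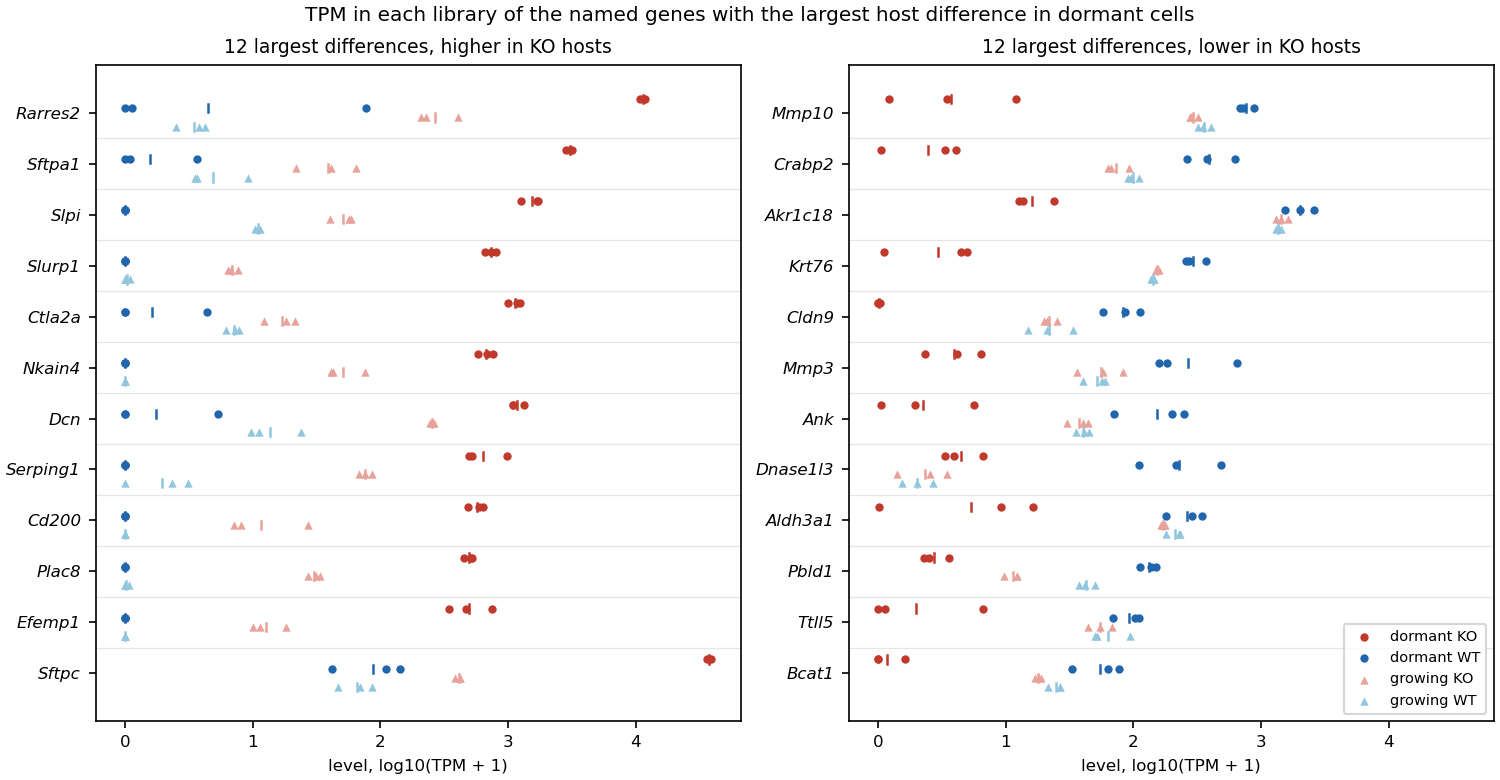
Level of the 12 genes with the largest higher (left) and the 12 with the largest lower (right) log2 difference in dormant cells, predicted genes (repeat genes among them), pseudogenes and small RNAs left out, on a log10(TPM + 1) axis, 1 point per library with a bar at the mean of 3 on that scale, for dormant (circles) and growing (triangles) cells of KO (red) and WT (blue) hosts. On the left the dormant KO points lie to the right of all others, and on the right they lie to the left of all others but for Dnase1l3, where the growing cells average 1.48 and 1.07 TPM.

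The rest of the 12 lay outside the alveolar and mesothelial lists. Slpi, an inhibitor of leukocyte proteases, was listed at 0 in the WT libraries and stood at 1700, 1272 and 1712 TPM in the KO libraries (log2 difference 10.6, SE 0.389, adjusted p = 8.36e-05 in limma). Dcn, decorin, a matrix proteoglycan of fibroblasts, was at 1098, 1324 and 1094 TPM against 4.39, 0 and 0 TPM. Serping1, the C1 inhibitor, and Efemp1, a fibulin of elastic matrix, were listed at 0 in all WT libraries and reached 492.3 to 990.3 and 343.8 to 745 TPM. Plac8 and Ctla2a, the latter a cysteine protease inhibitor, had 450.4 to 523.7 and 992.3 to 1237 TPM in KO libraries. Slpi, Serping1, Efemp1 and Plac8 passed the filter only through the KO libraries, so their groups had to differ. Dcn was 1 of 5 higher calls among 12 fibroblast and pericyte genes, with Col3a1 at 139.6 to 196.1 TPM against 0, while Pdgfra, Pdgfrb and Lum had differences below 0 that did not pass. The fibroblast count was 3 without any 1 of the KO libraries. For endothelium 7 of 14 were called higher (4, 4 and 5 without KO replicates 1, 2 and 3 in turn), among them Cldn5, a tight junction claudin, at 155.8, 313.9 and 207.9 TPM against at most 1.88 TPM.

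Many complement genes were called higher. Of 18 tested, 11 were called higher and none lower, with a median log2 difference of 4.29 against 0.206 over all genes. Without any 1 of the 3 KO libraries 5 were called higher. C2 had a KO mean of 90.7 TPM against at most 0.03 TPM in a WT library. C3, the central component, and Cfb, its partner in the alternative pathway, had KO means of 396 and 459 TPM and WT means of 17.6 and 22.4 TPM, but lost their calls in 4 and 3 of the 6 fits without a library (adjusted p up to 0.0835 and 0.124). The 3 C1q chains, made by macrophages, differed by -0.68, -0.57 and -0.44 and did not pass. Of 12 macrophage and monocyte genes, 3 were called higher. Lyz2, the gene whose promoter drives Cre in the KO hosts, was present in all 6 libraries, at 2918, 2944 and 2833 TPM against 782, 1407 and 1049 TPM (log2 difference 1.46, adjusted p = 0.0078 in limma).

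Lymphocyte and granulocyte genes that were called were higher, many of them held by KO libraries alone. Such genes made up 7 of the 8 higher calls among 9 T and NK cell genes, 5 of 6 in the B cell list, both in the dendritic cell list and 2 of 4 in the neutrophil list. Gzma, granzyme A, was at 139.1, 141.3 and 101.8 TPM against 4.6, 0 and 0 TPM and Cd3g at a mean of 53.1 TPM against 0. Of 8 B cell genes 6 were called higher, with Igkc, the kappa light chain constant region, at 956.3, 927.7 and 1028 TPM against 1.15, 62.61 and 6.11 TPM. The neutrophil list had 4 of 7 and the dendritic cell list 2 of 3, with Ccr7 at 15.14 to 19.62 TPM against 0. S100a8, a calprotectin subunit, was at means of 3160 and 430 TPM. Of erythroid and platelet genes 6 of 8 were called higher: Hba-a1, an alpha-globin, was at 19783, 18576 and 19243 TPM against 3378, 4894 and 4370 TPM, a log2 difference of 2.2. Haemoglobin genes together took 5.39% ± 0.281 (SD, n = 3) of TPM in KO and 1.1% ± 0.203 in WT libraries, and 0.73% and 0.649% in growing KO and WT cells.

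Calls among antigen presentation and interferon genes depended on the scaling and on the libraries in the fit. In the interferon response list 2 of 28 were called higher and none lower, and the median difference was 0.06. Median-ratio scaling gave 4 higher, all 12 libraries in the fit 4 higher and 2 lower, array weights 2 higher and 2 lower, and leaving out WT replicates 1, 2 and 3 in turn gave 4, 3 and 3 higher and 0, 2 and 2 lower. Ifitm3, an antiviral membrane protein, was at 5623, 6223 and 5231 TPM against 2869, 2466 and 2338 TPM (log2 difference 1.16, adjusted p = 0.00252 in limma), and Irf8, a myeloid and B cell factor, was listed at 0 in WT libraries. Irf1 differed by -0.3, Ifngr1 by 0.95 (95% interval -1.3 to 3.2) and Ifngr2 by -0.75 (95% interval -2.53 to 1.03). MHC class I presentation gave 1 of 16, Tap2, and class II 2 of 8, with H2-Aa at 762.8, 883.1 and 958.4 TPM against 517.9, 323 and 234.9 TPM. With median-ratio scaling 5 of the 16 class I and 6 of the 8 class II genes were called higher, and with all 12 libraries in the fit 3 and 5. Leaving out any 1 of the KO libraries gave 1 class II call, and the median log2 difference of the class II genes was 1.64. The H2-Aa call was lost in 4 of the 6 fits without a library, with adjusted p up to 0.106. Of 20 chemokines, 6 were called higher and 2 lower (1 lower without the first WT library or any 1 of the KO libraries). Cxcl1, a neutrophil attractant, was among the lower ones, at 147.2, 102.6 and 144.3 TPM in KO and 2093, 1625 and 1255 TPM in WT libraries, with growing means of 1400 and 1720 TPM. Cxcl12, the stromal ligand of CXCR4, was at 15.73 to 27.37 TPM against 0.

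With predicted, pseudogene and small RNA symbols left out, the largest lower call was Mmp10. Mmp10, stromelysin 2, was at 2.47, 0.22 and 11.13 TPM in KO and 682.6, 873.5 and 727.8 TPM in WT libraries (log2 difference -7.67, SE 0.816, adjusted p = 0.00339 in limma). Mmp3, stromelysin 1, was also lower, at 1.35 to 5.37 against 158.1 to 653.6 TPM. Growing cells held means of 294 and 358 TPM of Mmp10 and 57.9 and 51.4 TPM of Mmp3 in KO and WT hosts. Akr1c18, a steroid dehydrogenase that inactivates progesterone, was at 12.78, 11.63 and 22.87 against 2580, 2029 and 1549 TPM, 0.768% of the WT mean. Crabp2, a carrier of retinoic acid, and Aldh3a1, an aldehyde dehydrogenase, were at most 3.1 and 15.24 TPM in KO libraries and at least 260.7 and 179.5 TPM in WT libraries. The 16 metalloproteinases and inhibitors split, with 5 called higher (3 without the second WT or the third KO library), led by the macrophage elastase Mmp12 at 111.6, 189.7 and 102 TPM against at most 2.61 TPM, and 3 called lower.

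Other genes of this block were Krt76, a keratin, at 3.5, 0.12 and 3.96 against 256.4, 367.1 and 270.6 TPM, and Cldn9, a claudin, at no more than 0.03 against 56.75 to 112.2 TPM. Bcat1, which breaks down branched-chain amino acids, was listed at 0 in 2 KO libraries and at 32.16 to 76.79 TPM in the WT libraries. Ank, a pyrophosphate transporter, Pbld1 and Ttll5 had KO values of at most 5.65 TPM and WT values of at least 68.73 TPM. Dnase1l3, a secreted DNase that macrophages and dendritic cells make, was the 1 gene of these 12 whose dormant KO libraries did not all lie below the growing ones. It was at 480.9, 215.1 and 109.8 TPM in dormant WT, 2.32 to 5.69 TPM in dormant KO and means of 1.48 and 1.07 TPM in growing cells.

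Abundant transcripts changed too. Spp1 fell to 3.94% of its WT mean, with a log2 difference of -4.66 (SE 0.114, adjusted p = 2.75e-05 in limma). Lxn, latexin, an inhibitor of carboxypeptidases, was at 272.2, 395 and 319.9 TPM against 6572, 7676 and 5786 TPM, and Lgals1, galectin 1, at 1190, 1170 and 1244 TPM against 10851, 7992 and 7524 TPM. Actb, cytoplasmic actin, was at 2753, 3515 and 3272 TPM against 11491, 14632 and 11426 TPM. Tmsb4x, thymosin β4, which binds actin monomers, went the opposite way, at 17113, 15482 and 17941 TPM against 1131, 1464 and 1315 TPM (log2 difference 3.7, SE 0.117, adjusted p = 6.49e-05 in limma), and Crip1, a small LIM protein, rose 10.6-fold in mean TPM. S100a10, partner of annexin A2, had a difference of -1.16, which median-ratio scaling took to -0.68. Malat1, a nuclear long noncoding RNA, was at 5689, 10828 and 6038 TPM against 16692, 26990 and 29170 TPM, and its adjusted p of 0.0115 became 0.056 without the third KO library.

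Of 24 actin cytoskeleton genes 8 were called higher and 4 lower. The smooth muscle genes Acta2 and Tagln were listed at 0 in WT libraries and stood at 13.84 to 81.34 and 35.49 to 42.88 TPM in KO libraries, and Capg, an actin capping protein, was at 120.1, 175.1 and 120.8 TPM against 1182, 1168 and 800.2 TPM. Among 20 integrin and focal adhesion genes, 1 was called higher, the kinase Ptk2b, and 4 lower. Median-ratio scaling gave 2 lower, and the fits without KO replicates 1, 2 and 3 in turn gave 2, 1 and 2, Fn1 among them each time. Fn1, fibronectin, was at 22.05, 24.45 and 22.66 TPM in KO and 296.6, 367.6 and 304.1 TPM in WT libraries (log2 difference -3.75, SE 0.29, adjusted p = 0.000936 in limma), against means of 55.3 and 71.6 TPM in growing KO and WT cells. Itgb1, the β1 integrin chain, had a difference of -1.66 (adjusted p = 0.0262) and lost its call without each KO library in turn (adjusted p up to 0.0829) and under median-ratio scaling, where it was -1.18. Itgb3 did not reach the filter and was at most 0.57 TPM. Collagens gave 4 higher and 1 lower (none lower without any 1 of the KO libraries, 2 without the second WT library) of 14, and epithelial junction genes 7 higher (4 without the third WT library) and none lower of 14, with Cldn15 at 44.3 to 57.15 TPM against 0. All 4 higher collagens and 6 of the 7 higher junction genes were held by KO libraries alone. Mammary epithelial genes gave 5 higher (3 without the third WT library), Krt19 and Krt7 among them and all 5 held by KO libraries alone, and 1 lower of 8. Krt8, the lower one, was at 52.08, 106.3 and 79.87 TPM against 381, 187.7 and 183.4 TPM, and kept its call in 1 of the 6 fits without a library (adjusted p up to 0.135).

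Cell cycle calls are read beside the 12.2% higher and 6.25% lower over all genes tested. Of 22 G2/M genes 1 was called higher, Bub1, a spindle checkpoint kinase at 4.63 to 6.44 TPM against 0, and of 19 DNA replication genes 1 was called higher, Pold1, which lost its call without the second or the third WT library (adjusted p up to 0.0602). Mki67, the proliferation marker Ki-67, was at 3.44, 2.56 and 1.22 TPM in KO and 0.17, 0 and 29.93 TPM in WT libraries, a difference of -0.01 with a 95% interval from -3.26 to 3.23, so a change of several-fold in either direction was not detectable. Cdkn1b, which encodes the cell cycle inhibitor p27, differed by 0.17 (SE 0.779). Of 15 CDK inhibitors and cyclins 1 was called higher, Rbl2, which kept its call in none of the 6 fits without a library, and 2 lower (1 without the first WT library or any 1 of the KO libraries). Cdk6, a G1 kinase, was at 5.44, 6.32 and 5.56 TPM against 84.93, 40.7 and 45.18 TPM (log2 difference -3.02, adjusted p = 0.0122 in limma). Its partner Ccnd1, cyclin D1, was at 7.62, 2.92 and 7.66 TPM against 76.85, 22.89 and 90.22 TPM, and its adjusted p of 0.0303 passed in 1 of the 6 fits without a library (up to 0.0949). Among MYC and ribosome biogenesis genes 2 of 19 were called lower, of which Odc1, the first enzyme of polyamine synthesis, kept its call throughout and Nop56 in none of the 6 fits. Of the 82 ribosomal protein genes tested 8 were called higher and 2 lower.

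TGF-β pathway genes were mixed. Of 20 tested, 6 were called higher, 5 of them held by KO libraries alone, and 1 lower. Over all genes tested 12.2% were called higher and 6.25% lower. Among the ligands, Bmp4 and Bmp6, bone morphogenetic proteins, were listed at 0 in WT libraries and stood at 30.15, 45.53 and 42.59 TPM and at 13.46, 21.28 and 18.5 TPM in KO libraries. Ltbp1, which holds latent TGF-β in the matrix, was lower, at 12.68, 15.85 and 12.12 against 66.55, 86.19 and 75.93 TPM. Tgfbr2, deleted in myeloid cells of the KO hosts and not in the tumour line, was at 10.9, 2.19 and 11.48 TPM in KO and 3.38, 0.14 and 11.09 TPM in WT libraries (difference 0.99, 95% interval -1.66 to 3.64), so it gives no check of the labels here. Of 12 dormancy regulators, 5 were called higher, 4 of them held by KO libraries alone, and 2 lower (none without the first or the third KO library, 1 without the second). Gas6, a ligand of AXL, was at 51.99, 89.46 and 46.17 TPM against 0.32, 0 and 0 TPM, while Axl itself differed by -0.74 and did not pass. Igfbp5 was at 212.3, 244 and 211.3 TPM against at most 0.01 TPM. It belongs also to the IGF axis, in which 7 of 13 were called higher, 6 of them held by KO libraries alone, and 2 lower (none without any 1 of the KO libraries, 1 without the first or the third WT library), Igfbp7 at 191.1 to 258.4 TPM against 0 among them.

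Several metabolic and stress lists gave more lower than higher calls. So did the 3807 genes at 1 TPM or more in all 6 libraries, with 436 lower, 115 higher and a median log2 difference of -0.532. Over all genes tested 12.2% were called higher and 6.25% lower. More lower than higher calls are therefore not particular to these lists. Whether the lists go beyond the balance of such widely held genes was not tested. Of 21 heat shock and proteasome genes none was called higher and 7 lower, with a median log2 difference of -0.96. Hspa8, the constitutive Hsc70 chaperone, was at 535.4, 1125 and 520.4 TPM against 2516, 2222 and 2103 TPM. With median-ratio scaling 1 gene of this list was called lower. The unfolded protein list gave 4 lower of 22 (2 without the first and 1 without the third KO library), the lectin chaperone Canx among them at 73.03, 114.9 and 86.31 against 267, 433.9 and 279.4 TPM, and median-ratio scaling gave 1. Glycolysis and hypoxia genes gave 1 higher and 4 lower of 21, and 2 of each with median-ratio scaling. Without the first WT or the third KO library 1 of the 4 lower calls was left, Pkm, and without the first KO library 2 were lower. The higher call, Car9, held in 1 of the 6 fits without a library. Pkm, pyruvate kinase, was at 53.69, 108 and 65.22 TPM against 914.8, 893 and 711.4 TPM (log2 difference -3.51, SE 0.312, adjusted p = 0.00168 in limma), while Gapdh differed by -0.12. Cholesterol and fatty acid synthesis gave 1 higher and 3 lower of 19 (1 lower without any 1 of the KO libraries), among them Sqle, squalene epoxidase, at 1.02 to 5.92 against 29.69 to 143.2 TPM, a call lost without the second or the third KO library (adjusted p up to 0.0653).

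Detoxification genes split by member, 9 higher and 3 lower of 22 (1 lower without the third KO library). Gstt1, a glutathione transferase, was at 397.2, 393.9 and 288.7 TPM against 0, and Nqo1, a quinone reductase, at 0.75, 5.22 and 0 TPM against 22.06, 68.84 and 40.06 TPM, a call that held in 2 of the 6 fits without a library. AP-1 and immediate early genes gave 1 higher and 4 lower of 18 (2 lower without the first or the third KO library). Dusp1, a phosphatase of MAP kinases, was at 575.5, 974.8 and 534.2 against 3007, 3474 and 4153 TPM, whereas Fos and Jun differed by -0.45 and -0.27. The iron handling list gave 2 higher (1 without the second WT or first KO library) and 1 lower (none without the third WT library) of 11, and none of either without the second or the third KO library. Of further lists, apoptosis and survival gave 3 higher (1 without the third WT library) and none lower of 18, autophagy and lysosome 2 higher and 3 lower (1 without the third WT, the first KO or the third KO library) of 22, growth factor receptors and MAPK 4 higher (2 without the third WT library) and 2 lower of 25, and Wnt and Notch 3 higher and 1 lower of 11. Over all genes tested 12.2% were called higher and 6.25% lower. The higher calls of these lists were all held by KO libraries alone, but for autophagy and lysosome, where 1 of the 2 was. Ctsb, the lysosomal protease cathepsin B, was at 124.3, 263.5 and 112.1 TPM against 1071, 684.4 and 709.8 TPM, and Notch2 at 9.11 to 13.05 against 68.34 to 75.44 TPM.

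**Figure D5:**
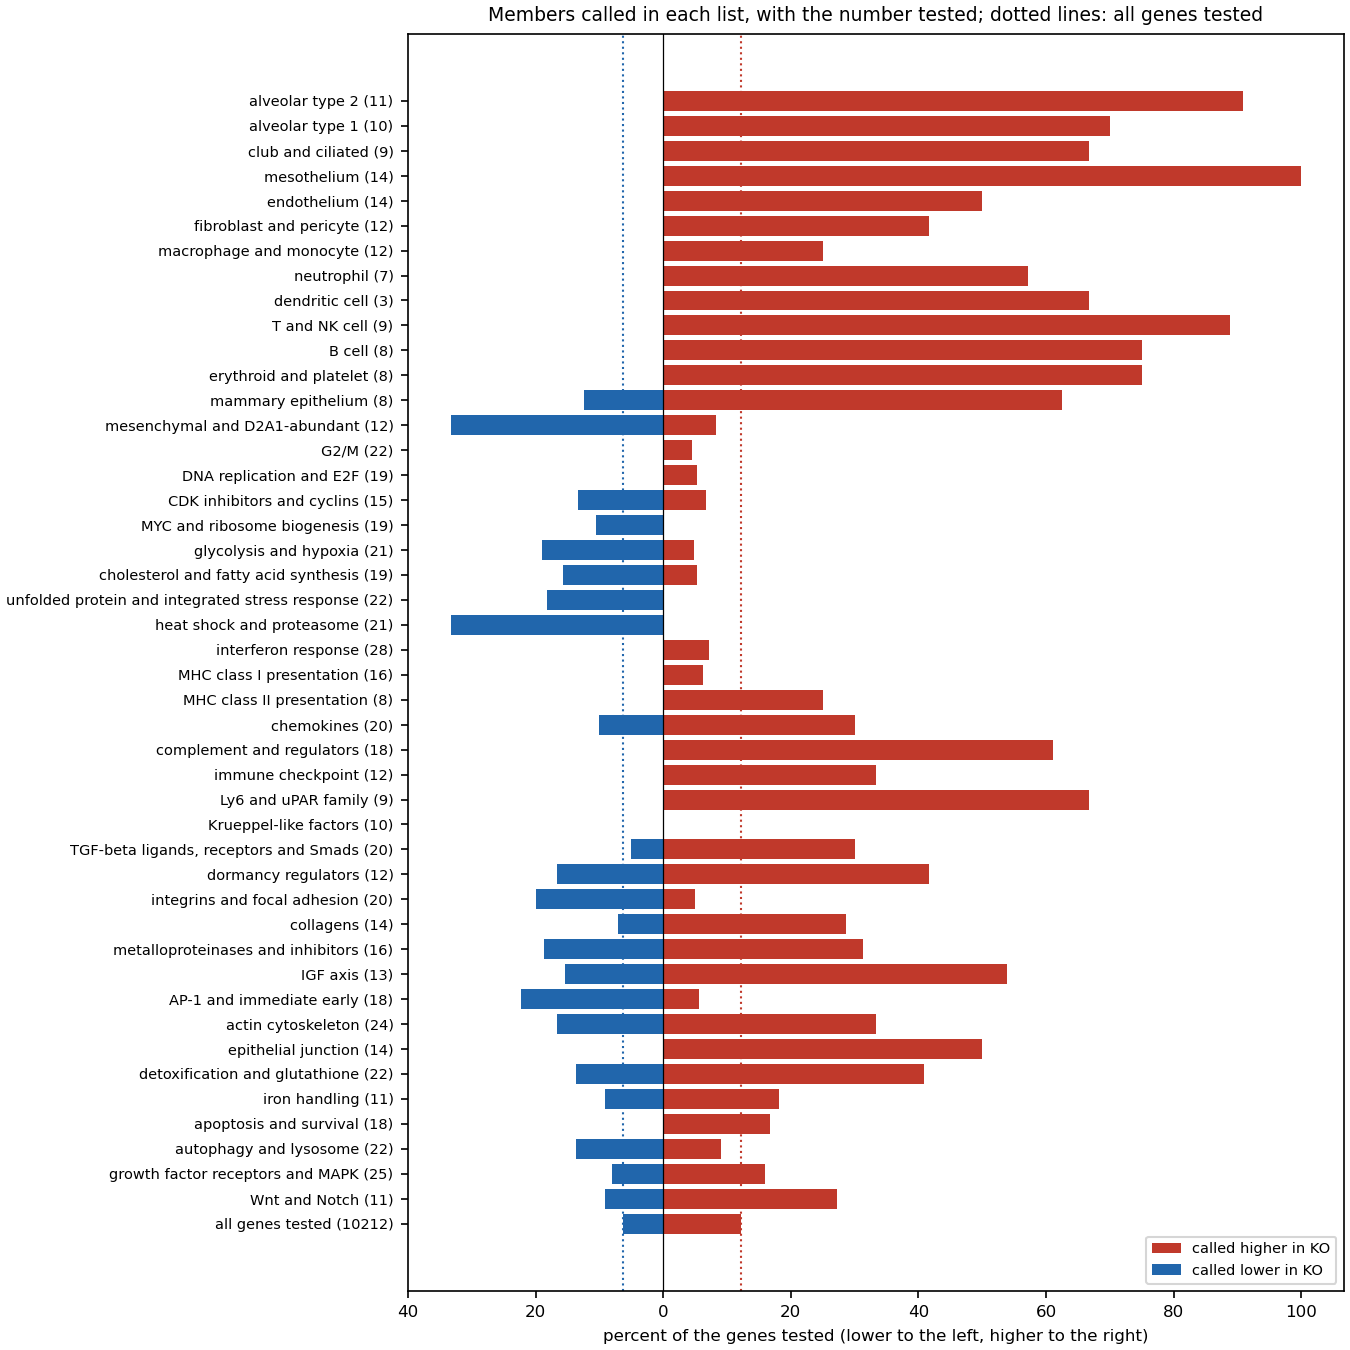
Percent of the tested members of each of 45 gene lists called higher (red, to the right) or lower (blue, to the left) in dormant KO against dormant WT cells, with the number tested in brackets. Dotted lines mark the shares over all genes tested, 12.2% and 6.25%; the lists of lung and blood cell markers all lie past the first, while the Krüppel-like factor list has no call.

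Counts of 1 or 2 in a list moved easily with the libraries in the fit. Without the first WT library, G2/M genes gave 1 higher and 1 lower, DNA replication genes 2 and 1, and MYC and ribosome biogenesis genes 1 and 1. Without the second WT library no DNA replication gene was called higher and 1 G2/M gene was lower, and without the third, 2 G2/M genes were higher. The higher call of the mesenchymal list was lost without the third WT library, that of the cholesterol list without the third WT library or any 1 of the KO libraries, and that of the AP-1 list without the first or second WT or the third KO library. Autophagy and lysosome genes gave 1 higher call in each fit without a library but that without the first WT library, 1 dendritic cell gene was called without any 1 of the WT libraries, and growth factor receptors gave 4 lower without the third WT library. With quantile normalization the higher counts were 3 for the TGF-β list, 3 for dormancy regulators, 3 for metalloproteinases, 2 for immune checkpoints, 1 for collagens, 1 for Wnt and Notch and 0 for growth factor receptors, integrins and autophagy. With all 12 libraries in the fit the unfolded protein list had 10 lower calls and apoptosis and survival 6 higher ones.

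Some abundant transcripts hardly differed. Of 1291 genes with a mean of at least 100 TPM, 279 had a 95% interval of the log2 difference within -1 and 1. The 6 with the smallest differences were Sod1, Serf2, Eef1a1, Cox14, Npc2 and Acot13. Eef1a1, the elongation factor that brings aminoacyl-tRNA to the ribosome, was at 1688, 1680 and 1797 TPM in KO and 1867, 1734 and 1556 TPM in WT libraries, and Cox14, an assembly factor of cytochrome oxidase, at 477.3, 383.2 and 463.9 against 428, 431.6 and 452.2 TPM.

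The growing libraries show where each host's dormant cells stood. Of the genes called lower, in 462 (72.4%) all 3 dormant KO libraries lay below the other 9, and in 291 (45.6%) all 3 dormant WT libraries lay above the other 9. Of those called higher, the dormant KO libraries lay above the other 9 in 814 (65.3%) and the dormant WT libraries below the other 9 in 340 (27.3%). Over all genes tested these patterns held 9.32%, 5.25%, 11.1% and 5.7%. The host difference itself differed between dormant and growing cells for 1312 of 13002 genes (10.1%) by the interaction term in limma, at an adjusted p of at most 0.05 and a size of at least 1. Both host differences share a batch split, so this test compares the split in dormant libraries with that in growing ones.

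Transcripts from 12 tested genes in satellite repeat blocks were lower in all cases, with log2 differences from -9.21 to -4.42. They took 3.13% ± 1.02 (SD, n = 3) of TPM in dormant WT libraries, 0.00527% ± 0.00156 in dormant KO libraries and about 0.001% in growing ones (0.000897% and 0.00105%). These repeats set the dormant WT libraries apart from the other 9. With haemoglobin, mitochondrial and these repeat genes removed and the rest rescaled, 1865 genes were called, and 96.7% of the 1884 calls were kept. Beyond this effect on the scale, their part in the other differences was not tested.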

How the data were processed

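The authors trimmed reads with Cutadapt, aligned them to the mouse genome mm10 with STAR and quantified genes with RSEM. Versions 1.18, 2.5.2b and 1.3.3 stand in the submitters' processing notes, and the study's methods give other versions for Cutadapt and RSEM. The deposited values are TPM, shares of all transcripts corrected for length, which keep no read depth, so the depth of a library is unknown and no counting interval can be given. RSEM divides reads among near-identical genes, so haemoglobin, histocompatibility and immunoglobulin genes are uncertain as single genes. The labels name an mRNA kit on purified RNA, whereas the study's methods describe small sorted aliquots amplified by Smart-seq2, in which a transcript can be missed altogether. A further 30 columns of the table carry no label of this series and were not used.

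Genes at 1 TPM or more in at least 3 of the 6 dormant libraries were tested with limma 3.58.1 in R 4.3.3 on log2(TPM + 1) of these 6 libraries, with Benjamini-Hochberg adjustment over all genes tested. A gene was called at an adjusted p of at most 0.05 with a log2 difference of at least 1. The difference between dormant and growing cells was fitted as an interaction over all 12 libraries. The code was tested on simulated data, in which most genes given a large difference were not called. A gene that was not called here may therefore still differ. Single values were compared by two-sided exact permutation tests, which cannot go below 0.1 with 3 libraries against 3. Alternatives covered the pseudocount, filters, scalings, weights, a replicate block and the omission of each library. Libraries sharing a replicate number did not deviate together, so the numbers were not treated as pairs.

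Genes are named by a rule: the 12 largest differences each way among called genes whose libraries did not overlap, with a mean of at least 10 TPM in the higher group and no predicted, clone, pseudogene, microRNA, small nucleolar RNA or immunoglobulin symbol, the 6 most abundant called genes each way, up to 2 called members each way of each gene list, a panel from the study, and the 6 abundant genes that differed least. Members named beyond these, and the genes held in all 6 libraries, were chosen after their values were seen. The samples, gene lists and rules were chosen with earlier results of these data known. Gene positions come from GENCODE M21 on GRCm38 (mm10), and promoter sequences from RefSeq on GRCm38.p6.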

Additional observations from a re-analysis of the deposited data

Results flagged for a closer look

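Results are listed here because the host difference, KO minus WT, in dormant cells departed from that in growing cells by the interaction term of limma at a Benjamini-Hochberg adjusted p of at most 0.05 and a size of at least 1. This held for 1312 of 13002 genes, and each value is the log2 host difference in dormant cells minus that in growing cells. The dormant KO libraries held high lung cell and low D2A1 marker levels, as given above, and the part of other cells in these values was not tested. Among genes higher in dormant KO libraries, Slpi (8.36), Ctla2a (8.18), Sftpa1 (7.93), Slurp1 (6.77), Sftpc (6.11), Cd200 (5.61), Efemp1 (5.27), Dcn (5.17), Plac8 (4.06), Serping1 (4.01) and Nkain4 (3.73) had the larger rise in dormant libraries. Rarres2, with the largest rise in dormant cells, did not pass (5.04, adjusted p = 0.105). The abundant Crip1 (3.42), Gas6 (3.42), Hbb-bs (2.19), Hba-a2 (2.18), Hba-a1 (2.03) and Tmsb4x (1.21) followed.

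Among genes lower in dormant KO libraries, the proteases Mmp10 (-7.39) and Mmp3 (-6.19), the enzymes Akr1c18 (-7.04), Dnase1l3 (-5.88), Aldh3a1 (-5.3), Bcat1 (-5.09) and Pbld1 (-3.68), and Crabp2 (-6.91), Krt76 (-6.77), Cldn9 (-6.35), Ank (-5.97) and Ttll5 (-5.36) had the lower host difference in dormant libraries. Of the abundant and matrix genes, Spp1 (-4.57), Lxn (-4.03), Fn1 (-3.37), Lgals1 (-2.15), Actb (-2.0), Itgb1 (-1.67) and S100a10 (-1.04) did so. Groups of 3 libraries are too small to test for a stray library.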

How the results depend on the processing

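The count of 1884 genes stayed within 1.5 times its value under both pseudocounts, the 5 TPM filter, all 3 scalings, array weights, 2 of the 3 thresholds and the omission of each library (1288 to 2055). It was 682 with no filter, 1158 with a filter on mean TPM, 897 with a filter on growing libraries, chosen after the data were seen, 710 at an adjusted p of 0.01 and 2980 with all 12 libraries in the fit. With a replicate block it was 271, all among the 1884. Deviations of same-numbered libraries correlated at -0.013 to 0.0037, so the samples share only a number. The interaction count of 1312 ranged from 870 to 1950 without single libraries, the lowest without the third growing WT library. Of the 45 lists, 28 had a median above that of all genes tested, and 27 to 30 under the alternatives that kept every library. Of 248 called list members and named genes, 160 kept their call in each fit without a library, and no named gene reversed. Depth is unknown in TPM, so the detection limit of genes listed at 0 cannot be given.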
